A study of Drosophila melanogaster with 12 samples.

Results

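Eiger is the tumour necrosis factor ligand of Drosophila, and the 10 genes described here are the ligand, its receptors and the c-Jun N-terminal kinase (JNK) cascade below them. They were taken by name from the deposited transcript table and are 10 of its 17139 genes, with 36 of its 34213 transcripts. RNA had been sequenced from fat bodies of Drosophila melanogaster larvae 96 hours after egg laying. The 6 control libraries came from r4-Gal4 crossed to wild type, and the 6 TFAM RNAi libraries from larvae in which r4-Gal4 drove RNAi of TFAM, the main packaging protein of the mitochondrial genome. The r4 driver is active mostly in larval fat body, where it makes the yeast transcription factor Gal4, and larvae of both groups carry it; the labels name no RNAi construct for the controls. They do not say how many larvae were pooled in a library or whether libraries came from separate cultures, and p-values therefore reflect only how these libraries vary, which may be partly technical.

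Eiger (egr) is made as a membrane protein that can be cut free by the protease encoded by Tace, and it binds the receptors Grindelwald (grnd) and Wengen (wgn). The signal passes through the kinase Tak1 to the JNK kinase hemipterous (hep) and the JNK basket (bsk), which acts on the AP-1 subunits kayak (kay, the fly Fos) and Jra (the fly Jun). AP-1 raises the transcription of target genes such as puckered (puc), a phosphatase that switches JNK off again, and Mmp1, a matrix metalloproteinase. In larvae, Eiger from the fat body is known as a signal that reaches the insulin-producing cells of the brain. Tak1 also serves the Imd branch of the immune response, downstream of the peptidoglycan receptor PGRP-LC.

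The targeted gene TFAM fell from 91.9 ± 8.21 to 24.2 ± 1.92 TPM (transcript abundance scaled for length and for the library total; mean ± SD, n = 6 libraries each). Relative to each gene's mean over the 12 libraries, libraries differed in how levels varied with transcript length, for reasons that were not tested. The slope of the level on transcript length, over 6950 genes, ran from −0.24 to 0.18 log2 units per doubling of length. It was negative in 4 of 6 control libraries and in 1 of 6 TFAM RNAi libraries, replicate 3, which had the lowest slope. The same library had 1041 TPM of 8 salivary gland markers summed, against 6.74 to 31.5 TPM in the others, and control replicate 2 had 3055 TPM of 8 muscle markers against 237 to 924 TPM in the others. Of 8 fat body markers 6 were tested, 1 rose and 1 fell. The larval serum protein gene Lsp1beta had at least 19111 TPM in each library, and Fbp1 (at most 1.49 TPM) and Yp1 (at most 0.36 TPM) were low in all of them. Fbp2 rose 14.7-fold, from 142 ± 118 to 2089 ± 1119 TPM (SD, n = 6 each; adjusted p = 2.8e-04). Lsd-1, which encodes a lipid droplet protein, fell 1.85-fold, from 1479.8 ± 318 to 800.3 ± 25.7 TPM (adjusted p = 2.8e-04). For both genes the groups did not overlap. Over all 9951 genes tested 13.8% were called lower and 5.75% higher at an adjusted p under 0.05. Without overlap, 9.76% lay lower and 3.56% higher. Markers of the tissue itself thus differed in either direction, as did genes over the whole table. The part of these markers in the results below was not tested. These features of the libraries are set beside each result below that moves with them.

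In TFAM RNAi fat bodies egr, Tak1, kay, Jra and Mmp1 fell, and 0 of the 10 genes rose. The ligand fell the most, 3.58-fold in the mean. Tak1 fell 2.14-fold, kay 2.11-fold, Mmp1 1.89-fold and Jra 1.49-fold. The receptors grnd and wgn, the kinases hep and bsk, and puc did not pass the test. Among all 9951 genes tested 13.8% were called lower at an adjusted p under 0.05 and 5.75% higher, against 5 and 0 of these 10. In either direction it was 19.6%, against 5 of 10. The 10 genes were chosen with earlier results of these data known, so this contrast is no test of an excess among them. The direction over all genes depended on the fit. In the main fit 1377 genes were lower and 572 higher. Under median-ratio scaling 1127 were lower and 447 higher, and under quantile normalization 1075 and 961. The same 5 of the 10 genes were lower with either scaling. The split moved further in other fits, which are given in the last section. The median log2 fold change of the 10 genes was −0.42, beside 0.01 over all genes tested. The groups of libraries did not overlap for egr and Tak1, and 9.76% of all genes tested lay lower without overlap. Another 3.56% lay higher without overlap, and 0 of the 10 did. In whole-tissue RNA, fewer cells of a type and less RNA per cell cannot be told apart.

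**Figure D1:**
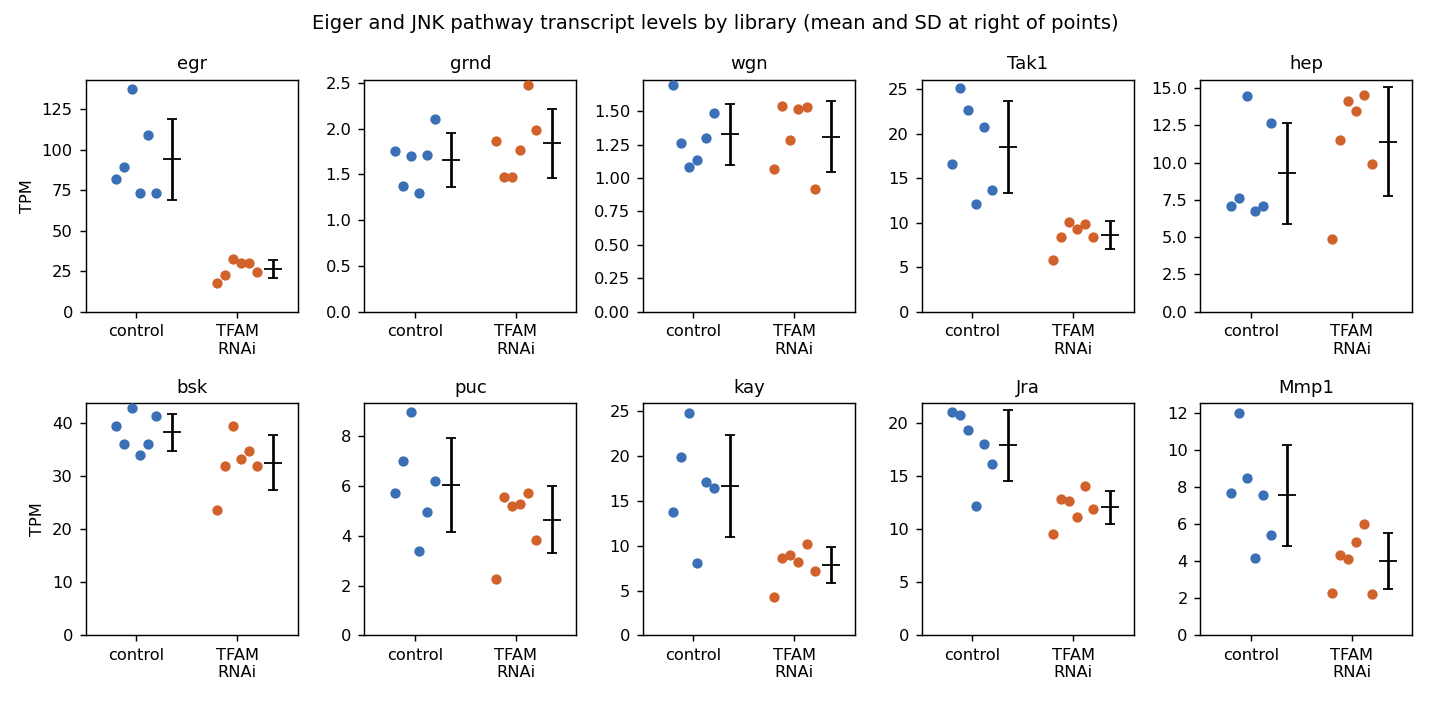
Levels of the 10 genes in TPM (vertical axes, each from 0) in 6 control and 6 TFAM RNAi libraries; each point is 1 library, and the bar to the right of the points is the mean with its SD. For egr and Tak1 the TFAM RNAi points lie below the lowest control point, whereas the points of grnd, wgn and hep overlap.

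The ligand gene egr (FBgn0033483) had 73.3 TPM in the lowest control library, a median of 85.5 TPM and 137 TPM in the highest. In the TFAM RNAi libraries it had 17.8 TPM in the lowest, a median of 27.2 TPM and 32.4 TPM in the highest. No TFAM RNAi library reached the lowest control, which had more than double the level of the highest TFAM RNAi library. The means were 93.9 ± 24.9 and 26.3 ± 5.57 TPM (SD, n = 6 each). The log2 fold change, on the log2(TPM + 1) scale, was −1.79 (SE 0.18, 95% interval −2.18 to −1.40, adjusted p = 1.2e-05). The fall was called in all 12 fits that left out 1 library, with log2 fold changes from −1.85 to −1.67, and with the length slope as a covariate it was −1.88.

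Both RefSeq transcripts of egr fell. NM_165735, which made up most of the egr level, had 57.1 to 108 TPM in the controls and 15.5 to 27.6 TPM in TFAM RNAi (log2 fold change −1.70, SE 0.17, adjusted p = 1.4e-05). NM_206069 had 14.7 to 29.1 TPM in the controls and 2.27 to 7.64 TPM in TFAM RNAi (log2 fold change −1.98, SE 0.23, adjusted p = 4.9e-05). For neither transcript did the groups overlap. Of the 15248 transcripts tested, 8.27% lay lower without overlap and 3.20% higher. NM_206069 took 21.6 ± 1.31% of the egr level in control and 16.8 ± 4.66% in TFAM RNAi (SD, n = 6 each), a difference of −4.80 percentage points (exact two-sided permutation test, p = 0.041). This small shift in share was carried by 5 of 6 TFAM RNAi libraries, all below the lowest control at 20.1%, while TFAM RNAi replicate 7 had the highest share of any library, 25.2%. It passed the exact test in 4 of the 12 comparisons that left out 1 library, in which control replicate 7, control replicate 8, TFAM RNAi replicate 6 and TFAM RNAi replicate 7 were each dropped (p from 0.0022 to 0.082 over the 12), and the split of reads between overlapping transcripts is an estimate of the authors' quantifier.

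The receptors were near the bottom of the range in both groups. Grindelwald (grnd, FBgn0032682) had 1.30 TPM in the lowest control library, a median of 1.71 and 2.10 TPM in the highest, and 1.47, 1.82 and 2.48 TPM in TFAM RNAi. Wengen (wgn, FBgn0030941) had 1.09, 1.28 and 1.70 TPM in the controls and 0.918, 1.40 and 1.54 TPM in TFAM RNAi. The groups overlapped for both receptors. The log2 fold change of grnd was 0.09 (95% interval −0.19 to 0.38, adjusted p = 0.69) and that of wgn −0.01 (95% interval −0.29 to 0.27, adjusted p = 0.96), so neither a rise nor a fall of the size seen in egr lies within these intervals. On this scale, log2(TPM + 1), changes of genes near 1 TPM are understated. Tace, the gene for the protease that releases Eiger, lay below the filter of a mean of 1 TPM at 0.401 ± 0.277 and 0.441 ± 0.146 TPM (SD, n = 6 each).

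The kinase gene Tak1 (FBgn0026323), which acts upstream of hep, had 12.2 TPM in the lowest control library, a median of 18.7 TPM and 25.1 TPM in the highest. In TFAM RNAi the lowest library had 5.84 TPM, the median was 8.84 TPM and the highest had 10.1 TPM. The 2 groups did not overlap. The log2 fold change was −0.99 (SE 0.18, adjusted p = 0.0017), called in all 12 fits without 1 library (log2 fold changes from −1.10 to −0.89).

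The 2 RefSeq transcripts of Tak1 behaved differently from each other. NM_001298569 had 4.52 TPM in the lowest control library, a median of 12.2 TPM and 18.5 TPM in the highest, and 0.232, 0.403 and 0.573 TPM in TFAM RNAi. It was near 0 in each TFAM RNAi library, and its mean fell 27.2-fold, from 11.2 ± 5.34 to 0.414 ± 0.137 TPM (SD, n = 6 each; log2 fold change −2.99, SE 0.28, adjusted p = 7.5e-06). NM_079356 had 5.99, 6.57 and 9.17 TPM in the controls and 5.53, 8.53 and 9.66 TPM in TFAM RNAi, with overlapping groups (log2 fold change 0.16, 95% interval −0.17 to 0.49, adjusted p = 0.56). NM_001298569 made up 33.0 to 73.6% of the Tak1 level in control and 2.78 to 6.85% in TFAM RNAi, so that this transcript carried the fall of the gene. These shares were looked at after the transcript values were known and are given without a test. NM_001298569 had 5.85 to 18.5 TPM in the 4 controls with a negative length slope. In the 2 controls with a positive slope, replicates 5 and 8, it had 13.7 and 4.52 TPM. In TFAM RNAi it had 0.311 TPM in replicate 3, with a negative slope, and 0.232 to 0.573 TPM in the 5 libraries with a positive slope. With the slope as a covariate the log2 fold change of NM_001298569 was −2.96 (SE 0.30, adjusted p = 2.1e-05).

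**Figure D2:**
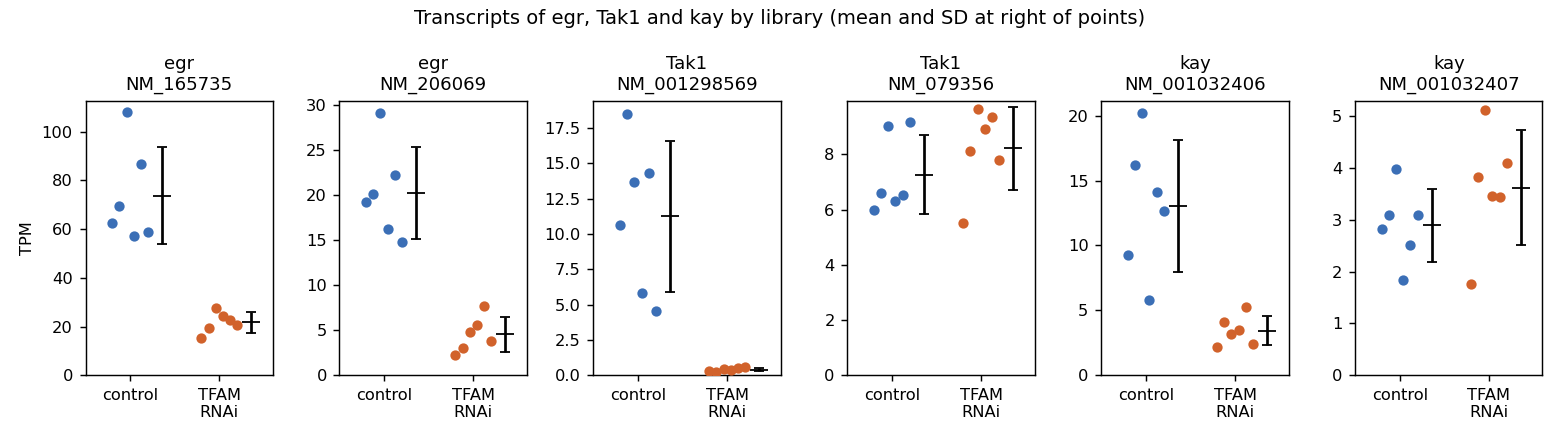
Levels in TPM (vertical axes, each from 0) of the transcripts of egr, and of the main transcripts of Tak1 and kay, in each of the 6 control and 6 TFAM RNAi libraries, with mean and SD at the right of the points. NM_001298569 of Tak1 lies between 0.232 and 0.573 TPM in TFAM RNAi, while NM_079356 overlaps between the groups.

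Below Tak1, the JNK kinase gene hep (FBgn0010303) did not pass the test. It had 6.78 TPM in the lowest control library, a median of 7.36 TPM and 14.4 TPM in the highest, and 4.87, 12.5 and 14.5 TPM in TFAM RNAi (log2 fold change 0.26, 95% interval −0.31 to 0.83, adjusted p = 0.57). Its level moved with the length slope of the library. It was 4.87 to 7.63 TPM in the libraries with a negative slope, 4 control and 1 TFAM RNAi, and 9.88 to 14.5 TPM in those with a positive slope, 2 control and 5 TFAM RNAi. With the slope as a covariate the log2 fold change of hep was 0.06 (adjusted p = 0.67). The longest annotated hep transcript has 5689 bases, the greatest length among the 10 genes.

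The JNK gene bsk (FBgn0000229) was second to egr among the 10 genes in control. It had 33.9 TPM in the lowest control library, a median of 37.7 TPM and 42.7 TPM in the highest. In TFAM RNAi the values were 23.7, 32.6 and 39.5 TPM, with 4 libraries below the lowest control and 2 among the controls. The difference was not called (log2 fold change −0.24, 95% interval −0.48 to 0.00090, adjusted p = 0.18), but with the length slope as a covariate, a model chosen once the data had been examined, it was −0.30 (SE 0.069, adjusted p = 0.0065). In control the level of egr was 1.78 to 3.21 times that of bsk, with egr above bsk in 6 of 6 libraries, and in TFAM RNAi it was 0.708 to 0.898 times that of bsk, with egr above bsk in 0 of 6 libraries.

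**Figure D3:**
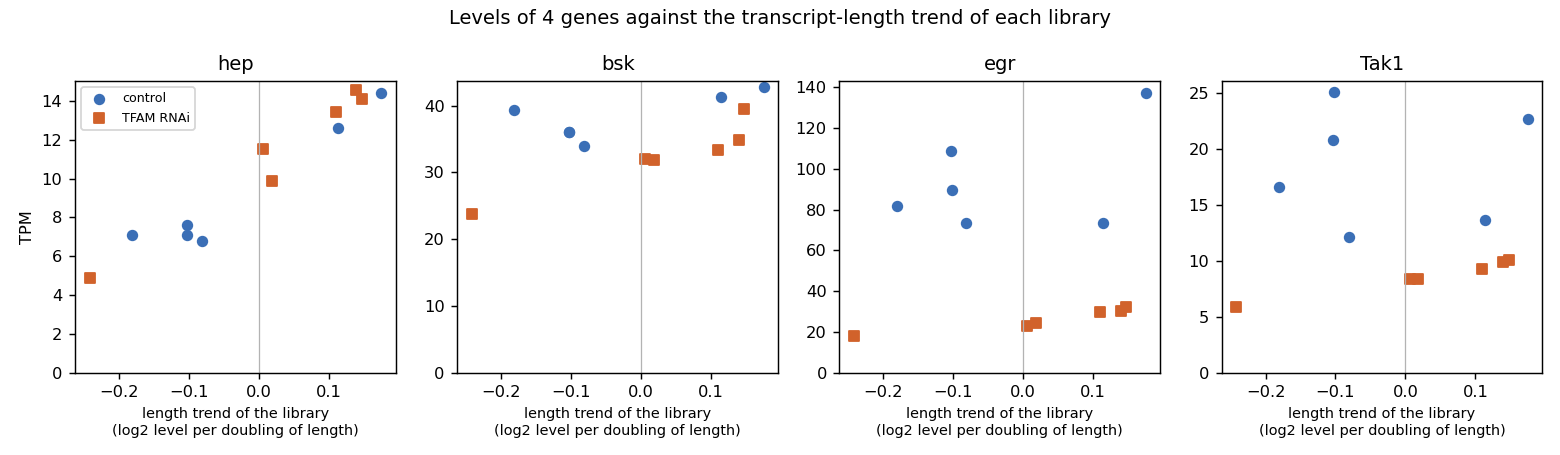
Levels of hep, bsk, egr and Tak1 in TPM (vertical axes, from 0) against the length slope of each library (horizontal axis, log2 level per doubling of transcript length); circles are the 6 control and squares the 6 TFAM RNAi libraries. Points of hep rise with the slope in both groups, from 4.87 to 14.5 TPM, whereas for egr and Tak1 the groups lie apart on both sides of 0. On the negative side TFAM RNAi has 1 library, replicate 3.

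Both AP-1 genes fell. The Fos gene kay (FBgn0001297) had 8.04 TPM in the lowest control library, a median of 16.7 TPM and 24.8 TPM in the highest, and 4.33, 8.35 and 10.2 TPM in TFAM RNAi. The groups overlapped through control replicate 6; the other 5 controls were above every TFAM RNAi library. The log2 fold change was −0.95 (SE 0.24, adjusted p = 0.014). The call was lost in an exact rank-sum test (adjusted p = 0.11) and after removal of the 4 libraries with most other-tissue markers, control replicates 2, 5 and 8 and TFAM RNAi replicate 3 (log2 fold change −0.65, adjusted p = 0.067), which left 3 controls with negative and 5 TFAM RNAi libraries with positive length slopes. With the slope as a covariate it was −1.08 (adjusted p = 0.0014).

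As with Tak1, 1 transcript of kay carried the change. NM_001032406 had 5.82 TPM in the lowest control library, a median of 13.4 TPM and 20.2 TPM in the highest, and 2.17, 3.37 and 5.26 TPM in TFAM RNAi, with no overlap (log2 fold change −1.61, SE 0.26, adjusted p = 7.2e-04). NM_001032407 was not called; it ranged from 1.84 to 3.97 TPM among controls and from 1.75 to 5.12 TPM under TFAM RNAi (log2 fold change 0.23, 95% interval −0.20 to 0.66, adjusted p = 0.52). The share of NM_001032406 in the kay level was 67.9 to 83.0% in control and 33.6 to 51.5% in TFAM RNAi, again given without a test because it was chosen after the values were seen. The call of NM_001032406 held in all 12 fits without 1 library.

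The Jun gene Jra (FBgn0001291) had 12.2 TPM in the lowest control library, a median of 18.7 TPM and 21.1 TPM in the highest, and 9.58, 12.3 and 14.1 TPM in TFAM RNAi. Again control replicate 6 was the library among the TFAM RNAi values, and the other 5 controls were above them. The log2 fold change was −0.52 (SE 0.14, adjusted p = 0.015). It was not called in the rank-sum test (adjusted p = 0.071) or after removal of those 4 libraries (adjusted p = 0.086). None of the 3 Jra transcripts was called alone, and 2 of them, NM_001273915 and NM_057238, had equal values in each library. The ratio of kay to Jra was 0.649 to 1.28 in control and 0.452 to 0.729 in TFAM RNAi. On chromosome arm 2R, egr and Jra are separated by 6 genes in the RefSeq gene order. Of these, 4 small nucleolar or Cajal body RNA genes were listed at 0, CG2269 was below the filter, and the sugar transporter gene sut4 was not called (1.84 ± 1.65 and 3.71 ± 1.34 TPM, log2 fold change 0.86, adjusted p = 0.11).

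Of the AP-1 targets among the 10 genes, Mmp1 passed the test narrowly and puc did not pass it. Mmp1 (FBgn0035049) had 4.17 TPM in the lowest control library, a median of 7.62 TPM and 12.0 TPM in the highest, and 2.21, 4.22 and 6.02 TPM in TFAM RNAi, with overlapping groups. The log2 fold change was −0.78 (SE 0.25, adjusted p = 0.0499). It was called in 3 of the 12 fits without 1 library, which lacked control replicate 6, control replicate 8 and TFAM RNAi replicate 7 in turn. In the other fits the adjusted p ran up to 0.11. Of its 10 transcripts, 8 were below the filter and the other 2 were not called. The phosphatase gene puc (FBgn0243512) had 3.38 TPM in the lowest control library, a median of 5.96 TPM and 8.97 TPM in the highest, and 2.25, 5.24 and 5.73 TPM in TFAM RNAi. Its log2 fold change was −0.32 (95% interval −0.81 to 0.17, adjusted p = 0.41), and −0.44 with the length slope as a covariate (adjusted p = 0.078).

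Ordered by control mean in TPM, which is scaled by length, egr was highest, followed by bsk, Tak1, Jra, kay, hep, Mmp1, puc, grnd and wgn. The ranges of egr and bsk, of bsk and Tak1, and of puc and grnd did not overlap in control; the other neighbours in that order overlapped. In TFAM RNAi bsk was highest, above egr in 6 of 6 libraries, and the range of egr was above that of Jra. Then came hep, Tak1, kay, puc, Mmp1, grnd and wgn, each overlapping with its neighbours. Low levels fell in part on the same libraries. Control replicate 6 was the lowest control for 9 of the 10 genes. TFAM RNAi replicate 3, the library with salivary gland transcripts and the lowest length slope, was the lowest TFAM RNAi library for 7. Over genes above 0 in all 12 libraries, the median ratio to the gene's geometric mean was also lowest there. It was 0.81 in control replicate 6 and 0.79 in TFAM RNAi replicate 3, so low levels there were not particular to these 10 genes. Without TFAM RNAi replicate 3 and control replicate 2, egr, Tak1, kay and Jra were called lower, and Mmp1 was not (adjusted p = 0.11).

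By transcript, 19 of the 36 were tested, 4 fell and 0 rose. Of all 15248 transcripts tested 11.8% were called lower, 5.47% higher and 17.3% in either direction. Those 4 were the egr transcripts, NM_001298569 of Tak1 and NM_001032406 of kay. The authors' deposited table of transcripts lists the same 4 of the 36 as significant. Its Wald coefficient, on a natural log scale, was −1.21 (SE 0.0994) for NM_165735 and −1.55 (SE 0.162) for NM_206069 of egr. For NM_001298569 of Tak1 the coefficient in the authors' deposited table was −3.21 (SE 0.339), and for NM_001032406 of kay −1.30 (SE 0.195). Another transcript, NM_001259570 of Mmp1, had a Wald q under 0.05 in the opposite direction in the authors' deposited table (coefficient 2.90, SE 0.994, q = 0.040), though it is not in their list of significant transcripts. It lay below the filter, was listed at 0 in 5 of 6 controls and in 1 TFAM RNAi library, and had at most 0.931 TPM. The authors' deposited table of 1561 significant genes holds egr (q = 4.4e-07), Tak1 (q = 4.9e-04), kay (q = 0.0034), Jra (q = 0.0087) and Mmp1 (q = 0.029), and not the other 5.

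Around the core cascade, 18 other TNF and JNK pathway genes were listed, of which 15 were tested and 3 lay below the filter. Of the 15, 1 fell and 0 rose, beside 13.8% lower and 5.75% higher over all genes tested. The median log2 fold change was 0.03, beside 0.01 over all genes. Some intervals were wide, such as −0.47 to 0.91 for CYLD and −0.28 to 0.79 for slpr, so changes of those sizes were not resolved. The gene that fell was Tab2, whose product binds Tak1 (10.9 ± 2.13 to 7.42 ± 1.48 TPM; adjusted p = 0.039 for a log2 fold change of −0.50, SE 0.15), a call that held in 4 of 12 fits without 1 library. The JNK-activating kinase gene Mkk4 had 22.7 ± 3.42 and 23.6 ± 4.86 TPM (95% interval of the log2 fold change −0.30 to 0.37) and the adaptor gene Traf6 had 3.32 ± 0.333 and 3.60 ± 0.45 TPM (−0.14 to 0.32). The kinase genes msn (7.73 and 8.11 TPM) and slpr (2.44 and 3.15 TPM) were not called either (adjusted p = 0.94 and 0.55). After removal of the 4 libraries with most other-tissue markers hep was called higher. So were 11 of the 42 tested genes of the wider lists, among them msn, slpr and Mkk4. Over all 9870 genes tested in that fit 2931 were called higher and 1613 lower, so higher calls were not particular to these lists. The length slopes of the libraries left in that fit were negative in 3 of 3 controls and positive in 5 of 5 TFAM RNAi libraries, so that group and length slope cannot be told apart there.

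Of 16 other genes listed as JNK or AP-1 targets, 10 were tested, 5 fell and 0 rose, with a median log2 fold change of −0.33. Over all genes tested 13.8% were lower and 5.75% higher, and the median was 0.01. Ets21C, an ETS-family transcription factor, fell from a mean of 10.1 ± 1.54 TPM to one of 0.79 ± 0.335 TPM (log2 fold change −2.64, SE 0.15, adjusted p = 7.2e-08). It was 8.63 to 12.8 TPM in the controls and 0.392 to 1.23 TPM in TFAM RNAi, far apart. The cytokine gene upd1 had 5.17 to 16.4 TPM in the controls and 0.0404 to 0.308 TPM in TFAM RNAi (log2 fold change −3.01, adjusted p = 9e-07). The matrix metalloproteinase inhibitor gene Timp fell from 2.09 ± 1.16 to 0.928 ± 0.169 TPM (adjusted p = 0.043) without overlap, and scaf, which encodes a protease-like protein, from 3.08 ± 1.24 to 1.21 ± 0.674 TPM (adjusted p = 0.031). The fifth was the profilin gene chic (329.5 ± 52.3 to 254 ± 31.4 TPM, adjusted p = 0.044), named here after its value was seen. Ets21C and upd1 were called in all 12 fits without 1 library, Timp in 3, scaf in 4 and chic in 2. The cell death gene hid (1.35 and 1.25 TPM, adjusted p = 0.81) and the transcription factor gene Atf3 (2.51 and 2.06 TPM, adjusted p = 0.95) were not called.

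**Figure D4:**
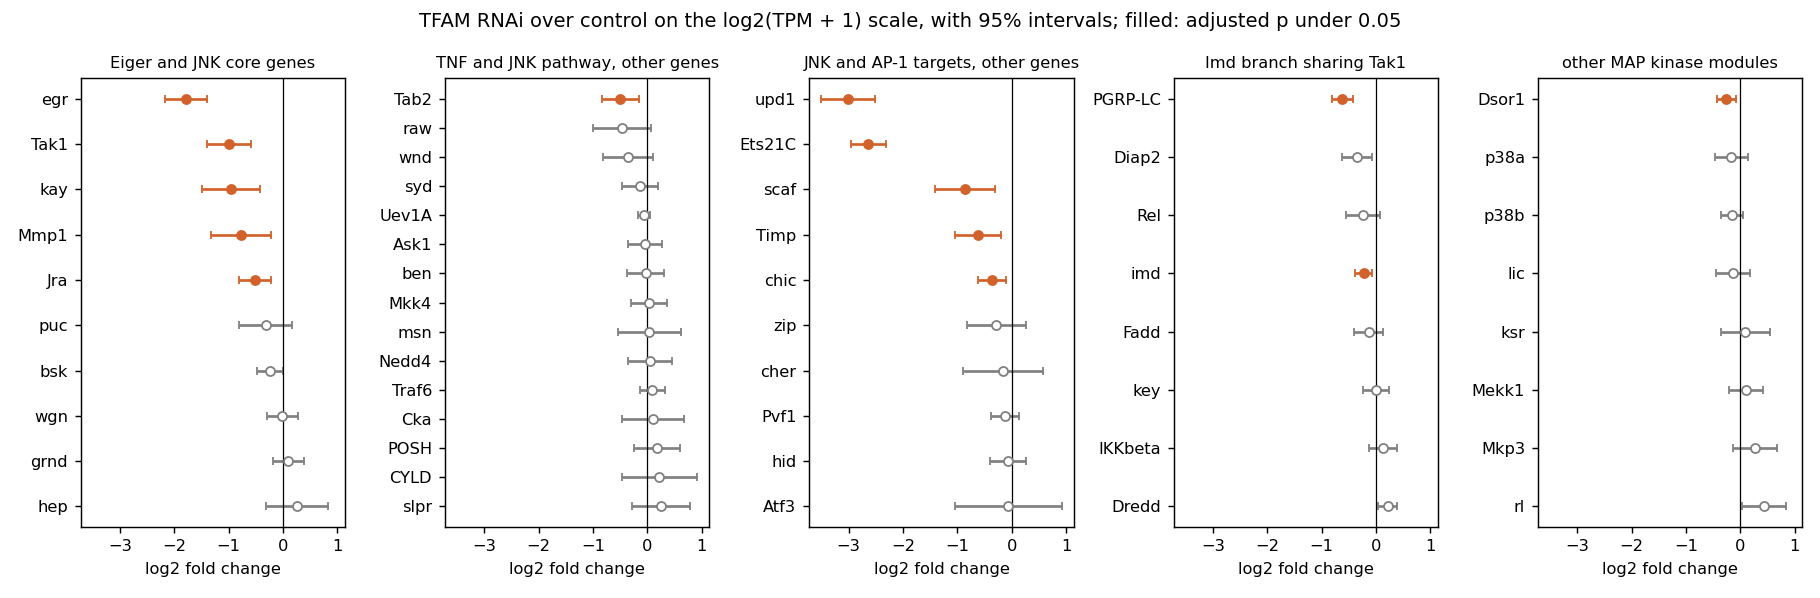
Log2 fold changes of TFAM RNAi over control (horizontal axes, log2(TPM + 1) scale) with 95% intervals for the tested genes of each list; filled points passed an adjusted p of 0.05. The filled points all lie left of 0, and those of upd1, Ets21C and egr lie farthest left.

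Below the filter, upd2 had 0.763 ± 0.311 TPM in the controls and 0.0302 ± 0.0229 TPM in TFAM RNAi, and upd3 0.633 ± 0.435 and 0.0495 ± 0.0309 TPM (SD, n = 6 each). With no filter they were lower, with adjusted p = 1.7e-04 for upd2 and 0.011 for upd3. The relaxin-like gene Ilp8 had 0.155 and 0.14 TPM, the cell death gene rpr 0.2 and 0.259 TPM, and Mmp2 0.153 and 0.213 TPM, and none of these 3 was called with no filter (adjusted p from 0.65 to 0.93).

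In the Imd branch that shares Tak1, 2 of 8 tested genes fell and 0 rose, a count near the 13.8% lower and 5.75% higher over all genes tested. The receptor gene PGRP-LC fell from a mean of 15.1 ± 1.30 TPM to one of 9.50 ± 0.921 TPM (log2 fold change −0.62, SE 0.089, adjusted p = 2.4e-04), without overlap, a call that held in all 12 fits without 1 library. The adaptor gene imd fell from 19.2 ± 1.32 to 16.2 ± 0.835 TPM (adjusted p = 0.037), called in 4 of those 12. The nuclear factor gene Rel had 19.5 ± 3.07 and 16.5 ± 3.42 TPM (adjusted p = 0.32). Of 8 genes of other MAP kinase modules 1 fell and 0 rose, again near those shares. Dsor1, the kinase upstream of the fly ERK, fell from 12.1 ± 1.04 to 10.0 ± 0.593 TPM (adjusted p = 0.045, called in 1 of the 12 fits without 1 library), and the ERK gene rl had 34.6 ± 7.21 and 47.8 ± 11.4 TPM (adjusted p = 0.14).

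Among 6944 other genes whose mean was 5 TPM or more, the 5 whose profile over the 12 libraries was nearest to that of egr were CG6136, Unc-76, CG1103, CG16952 and CG14435. Likeness was the root mean square difference of log2(TPM + 1) after each gene was centred on its own mean. It was 0.15 for CG6136 and 0.19 for CG14435, beside a median of 0.95 over the compared genes. CG6136 went from 15.2 ± 2.57 to 3.82 ± 0.521 TPM, and Unc-76, a gene of axon growth and transport, from 35.9 ± 6.77 to 11.2 ± 2.15 TPM. That they lay lower in TFAM RNAi, as egr did, follows from how they were chosen. Likeness was computed for the 7 other genes of the cascade with a mean of 5 TPM or more, not for grnd and wgn. Among those 7 it was smallest for Tak1, at 0.44, and greatest for hep, at 1.08. Because profiles were centred over all 12 libraries, these values include the difference between the groups and do not measure likeness within a group.

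Markers of other tissues were read beside these results. Of 8 hemocyte markers 6 were tested and 1 fell, the peroxidasin gene Pxn (136 ± 71.8 to 5.28 ± 1.37 TPM), and their sum was 103 to 283 TPM in the controls and 48.8 to 96.1 TPM in TFAM RNAi. Without Pxn the sum was 29.9 to 84.0 TPM in the controls and 45.6 to 89.4 TPM in TFAM RNAi. The hemocyte genes Hml (2.21 ± 1.25 and 2.58 ± 1.12 TPM) and NimC1 (0.926 ± 0.747 and 0.666 ± 0.189 TPM) were low in both groups. Most of the sum without Pxn was PPO1 (10.5 ± 8.05 and 17.7 ± 8.73 TPM), PPO2 (12.8 ± 9.08 and 19.9 ± 9.08 TPM) and crq (15.5 ± 1.54 and 17.2 ± 2.29 TPM). These were not called. Of the 6 tested hemocyte markers, 5 had a positive log2 fold change and 1, Pxn, a negative one. Of 8 ring gland markers 2 were tested and 1, the ecdysone-synthesis gene sad, fell (55.5 ± 15.2 to 0.539 ± 0.691 TPM); the sum of the others was 0.904 to 14.2 TPM in the controls and 0.47 to 10.8 TPM in TFAM RNAi. Of 8 imaginal disc markers 2 were tested, and their sum was 15.3 to 28.7 TPM in the control libraries and 8.49 to 27.0 TPM under TFAM RNAi. Most of it was ap (17.4 ± 4.92 and 15.8 ± 5.60 TPM, adjusted p = 0.71), whereas vg, nub, wg, en and ara were at or below 0.615 TPM in each library. Dll, below the filter and not tested, had 0.392 to 1.80 TPM among the controls and 0.0082 to 0.307 TPM under TFAM RNAi, without overlap and lower in the same direction as egr and Tak1. Of 8 muscle and 8 gonad markers 0 were called. Of the 5 gut, 3 nervous system and 2 imaginal disc markers tested, 1 each was called, higher (betaTry, Syt1 and Ubx). Beside these counts, 13.8% of all genes tested were called lower and 5.75% higher. The part of other tissues in the falls of egr, Tak1, kay, Jra and Mmp1 was not tested.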

How the data were processed

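The authors deposited TPM for 34213 RefSeq transcripts in 12 libraries, each summing to 1000000, so depth is unknown and counting intervals cannot be given. The authors deposited, too, Wald coefficients with their p-values and q-values. These coefficients are natural log values, since in the deposited tables their slope on the group difference in ln TPM was 0.999 over 1498 transcripts. Another deposited file has a fold change column headed with log2, and whether it holds the same values is not shown here. The submitters' processing notes name sleuth; the quantifier and genome build are not given in the sources used here, so no coordinates are printed. Transcripts were named by accession through a RefSeq table (99.65% matched) and TPM summed per gene. No member shared its values with another gene. Exons of grnd, Jra and Mmp1 overlap a gene on the opposite strand in the Ensembl annotation BDGP6.54; the kit was directional per the labels.

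Genes (9951) and transcripts (15248) with a mean of at least 1 TPM were tested with limma 3.58.1 in R 4.3.3 (lmFit, then eBayes with a mean-variance trend). Values were log2(TPM + 1), no block was used, and two-sided p-values were adjusted by Benjamini-Hochberg over every gene or transcript tested. Fold changes on this scale understate changes of low genes. Fits were checked on simulated data with independent noise for each gene and library. That check held no shifts shared by many genes of a library, such as the length slope. Transcript lengths came from the same annotation (longest per gene). All 10 genes, egr transcripts, up to 4 called genes per list and the 5 profiles nearest to egr are named. The genes and lists were chosen with earlier results of these data known. The length covariate, the fit without 2 libraries and the Tak1 and kay shares were added after the data were seen.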

Additional observations from a re-analysis of the deposited data

How the results depend on the processing

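The falls of egr, Tak1 and the egr transcripts were called under each of the 24 alternatives. Among all genes tested, 1637 to 2161 were called without 1 library, and 4544 after removal of the 4 libraries with most other-tissue markers. Of those 4544, 1613 were lower and 2931 higher, and the median log2 fold change of all genes in that fit was 0.16. Of the 10 genes 4 to 5 were called without 1 library, 2 by the exact rank-sum test, 3 without the 4 libraries (egr and Tak1 lower, hep higher) and 6 with the length slope as a covariate, which added bsk; Mmp1 was called in 7 of the 24. With the replicate number as a block 3 of the 10 genes were called (egr, Tak1 and kay), and Jra had an adjusted p of 0.0505. In that fit 4 genes of the wider lists were called, and among all genes 1168 lower and 1344 higher. The labels do not say whether numbers shared by the titles pair the libraries. Deviations of libraries with the same number correlated at −0.077 to 0.62 over 5 numbers, and 1 of the 5 was its own best match. Such correlations cannot decide whether the libraries were paired. Of the wider lists 9 genes were called, 3 to 7 without 1 library and 17, 11 of them higher, without the 4 libraries. The difference in the egr transcript share, −4.80 percentage points, was −4.01 without the 4 libraries (exact permutation p = 0.21), −3.62 without the 2 libraries that stand apart (p = 0.13) and −6.49 to −4.00 without 1 library; taken as a log2 ratio of summed TPM it was −0.39 (p = 0.0065). No cause of these changes was tested. TPM keeps no depth, so values under 1 TPM carry an unknown counting error.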
